A study of Mus musculus with 35 samples.

Results

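Transcripts of 10 core circadian clock genes were followed in microglia sorted from 3 brain regions. They are Arntl and Clock, which encode the activators of the clock, Per1, Per2, Per3, Cry1 and Cry2, which encode its repressors, Nr1d1 and Nr1d2, which encode the nuclear receptors REV-ERB alpha and beta, and Dbp, a clock-controlled output gene. They were chosen by name, and all 10 were among the 21236 genes of the count table. All 10 are protein coding in the GENCODE M21 annotation of GRCm38, which places the 4 genes that the results turn on most, from start to end of the gene, with Arntl (ENSMUSG00000055116) at chr7:113207465-113314126 on the plus strand, and on the minus strand Cry1 (ENSMUSG00000020038) at chr10:85131700-85185064, Nr1d1 (ENSMUSG00000020889) at chr11:98767932-98775333 and Per2 (ENSMUSG00000055866) at chr1:91415982-91459324. By edgeR 0 of the 10 passed the test for an effect of brain region, which 8.89% of all genes did. DESeq2 and limma-voom each called 1, Nr1d2, beside 2372 and 2964 of the 21236 genes. Nr1d1 differed between mice, as 15.3% of all genes did. Nr1d1 and Per2 were higher in the 6 mice with the higher mouse numbers, a split drawn after the mouse means of Nr1d1 had been seen and between whose sides 14.8% of all genes were called.

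The circadian clock is a feedback loop of transcription. BMAL1, the protein made from Arntl, pairs with CLOCK and switches on the Per, Cry, Nr1d1, Nr1d2 and Dbp genes through E-box sequences, after which PER and CRY proteins return to the nucleus and block the pair. REV-ERB alpha and beta compete with ROR receptors to repress Arntl, so that Arntl runs out of phase with Nr1d1 and Dbp over the day. Microglia, the resident macrophages of the brain, carry such a clock, and in macrophages its proteins are known to act on cytokine genes.

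The cells came from adult mice heterozygous for Tmem119-2A-CreERT2 and for Ai14(RCL-tdTomato)-D. In these mice tamoxifen lets Cre, expressed from the microglial Tmem119 gene, remove a stop cassette in front of the red protein tdTomato, and every mouse carried both alleles and received tamoxifen. tdTomato-positive cells were sorted from the midbrain (12 samples), the striatum (12) and the prefrontal cortex (PFC, 11) of 12 mice, 6 male and 6 female. Samples with the same title number were treated as 1 mouse, the males having odd numbers. The mice were kept in a cycle of light and dark, and the time of day at which each was killed was not given in the sources used here. Time of day, mouse and order of handling therefore cannot be told apart.

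Total counts ran from 37680501 to 54131421 per sample. A gene with 3 counts then had 0.0554 to 0.0796 CPM (counts relative to library totals, after TMM correction in edgeR), a floor that covers counting error only. The 8 microglial markers, among them Csf1r, P2ry12 and Tmem119, summed to between 34700 and 44250 CPM in every sample, with none of the 3 named at 0 in any. Markers of other cells were low, with sums of 208.9 to 495.8 CPM for 7 astrocyte transcripts, 190.2 to 750.2 for 6 of the oligodendrocyte lineage, 1.11 to 21.9 for 7 of neurons, 8.93 to 53.9 for 4 of endothelium and 1.42 to 22.1 for the 3 measured of border macrophages, of which Cd163 was at 0 in 25 samples. In bulk RNA, fewer expressing cells and less RNA per cell cannot be told apart. One sample, the striatum of mouse 3, had a column name that gave another region than its label, and the label was used.

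The sequence just before each gene was read for the motifs through which clock proteins act. RefSeq windows on GRCm38.p6, each running from 250 bases before to 50 bases after a transcript start, were found for 9 of the 10 genes, with 13 windows in all. Per2 had no window. The search on both strands was for the E-box CACGTG, bound by BMAL1 and CLOCK, its variant CACGTT, the D-box TTATGTAA, bound by DBP and its relatives, and AGGTCA, the core recognised by REV-ERB and ROR receptors. None of these motifs contains another. Of 32851 windows of this length, 7.15% held the E-box, 4.68% its variant, 0.938% the D-box and 16.3% the receptor core. At least 1 motif stood in a window of 8 of the 10 genes, and the window of Dbp held none. The share of all genes with at least 1 of these motifs was not counted, so the 8 have no background here.

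The 4 windows printed here hold an E-box, its variant or D-boxes. Among such windows these were chosen because the between-mouse differences described further on concern Nr1d1, Cry1 and Per3, while Per1 is a well known E-box target among the repressors. They lie at chr11:69098699-69098998 on the plus strand for Per1, and on the minus strand at chr10:85185005-85185304 for Cry1, chr11:98775328-98775627 for Nr1d1 and chr4:151044616-151044915 for Per3. Each is written 5′ to 3′ along its gene, with the motifs in capitals.
Per1: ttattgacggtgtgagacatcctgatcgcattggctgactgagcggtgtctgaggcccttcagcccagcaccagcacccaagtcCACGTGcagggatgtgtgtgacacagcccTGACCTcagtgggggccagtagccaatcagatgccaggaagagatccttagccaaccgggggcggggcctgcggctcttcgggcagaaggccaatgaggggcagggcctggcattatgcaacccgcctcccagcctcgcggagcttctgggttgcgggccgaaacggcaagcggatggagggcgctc
Cry1: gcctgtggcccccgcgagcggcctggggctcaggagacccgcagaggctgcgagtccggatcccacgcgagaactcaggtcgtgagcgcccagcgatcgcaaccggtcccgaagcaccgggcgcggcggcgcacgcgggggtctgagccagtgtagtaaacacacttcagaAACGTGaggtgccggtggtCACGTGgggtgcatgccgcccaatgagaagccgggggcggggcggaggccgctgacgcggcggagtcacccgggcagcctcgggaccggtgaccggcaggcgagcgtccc
Nr1d1: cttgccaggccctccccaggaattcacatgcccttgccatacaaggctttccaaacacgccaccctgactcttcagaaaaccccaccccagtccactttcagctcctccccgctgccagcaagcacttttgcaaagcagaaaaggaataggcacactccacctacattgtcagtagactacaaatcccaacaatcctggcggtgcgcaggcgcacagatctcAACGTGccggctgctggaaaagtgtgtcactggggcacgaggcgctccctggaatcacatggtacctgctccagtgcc
Per3: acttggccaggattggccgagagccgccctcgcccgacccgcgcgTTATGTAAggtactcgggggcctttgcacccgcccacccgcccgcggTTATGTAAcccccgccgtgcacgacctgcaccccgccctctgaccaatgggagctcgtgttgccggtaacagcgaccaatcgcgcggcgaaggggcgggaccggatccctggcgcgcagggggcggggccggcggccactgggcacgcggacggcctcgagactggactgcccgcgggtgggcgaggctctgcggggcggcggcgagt

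The E-box of Per1 began 166 bases before the start, with a receptor core at 137. Cry1 held an E-box at 60 bases and the variant, on the opposite strand, at 79. Nr1d1 held the variant at 28 bases, and Per3 held a pair of D-boxes at 205 and 158. Cry2 had the variant at 166, and Nr1d2, Clock and Arntl had receptor cores only, that of Arntl 31 bases after the start. Clock and Arntl also had windows without a motif. A match is a string of letters in the reference and says nothing of binding in these cells.

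Per kilobase of exon the 10 genes spanned a wide range of levels over the 35 samples. Nr1d2 was highest at 9.01 ± 1.16 CPM per kb (SD, n = 35), and Dbp followed at 6.66 ± 1.05. Cry1 stood at 4.57 ± 1.28, Per1 at 3.76 ± 1.09 and Nr1d1 at 3.27 ± 1.12, and these 3 neighbours overlapped. Cry1 exceeded Per1 in 24 of 35 samples and Per1 exceeded Nr1d1 in 21. Cry2, Arntl and Clock were close together at 1.70, 1.52 and 1.37 CPM per kb. Per3 (0.825) and Per2 (0.439) were lowest, and Clock exceeded Per3 in 34 samples, as Per3 did Per2. These values take all annotated exons of a gene as its length, which can overstate the length of a gene with several isoforms.

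In whole-gene CPM the means ran from 2.57 for Per2 to 48.7 for Nr1d2. All 10 were detected in every sample. The lowest value of all was Per2 in the PFC of mouse 2, with 8 counts or 0.155 CPM, against 312 counts or 6.08 CPM in the PFC of mouse 11.

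**Figure D1:**
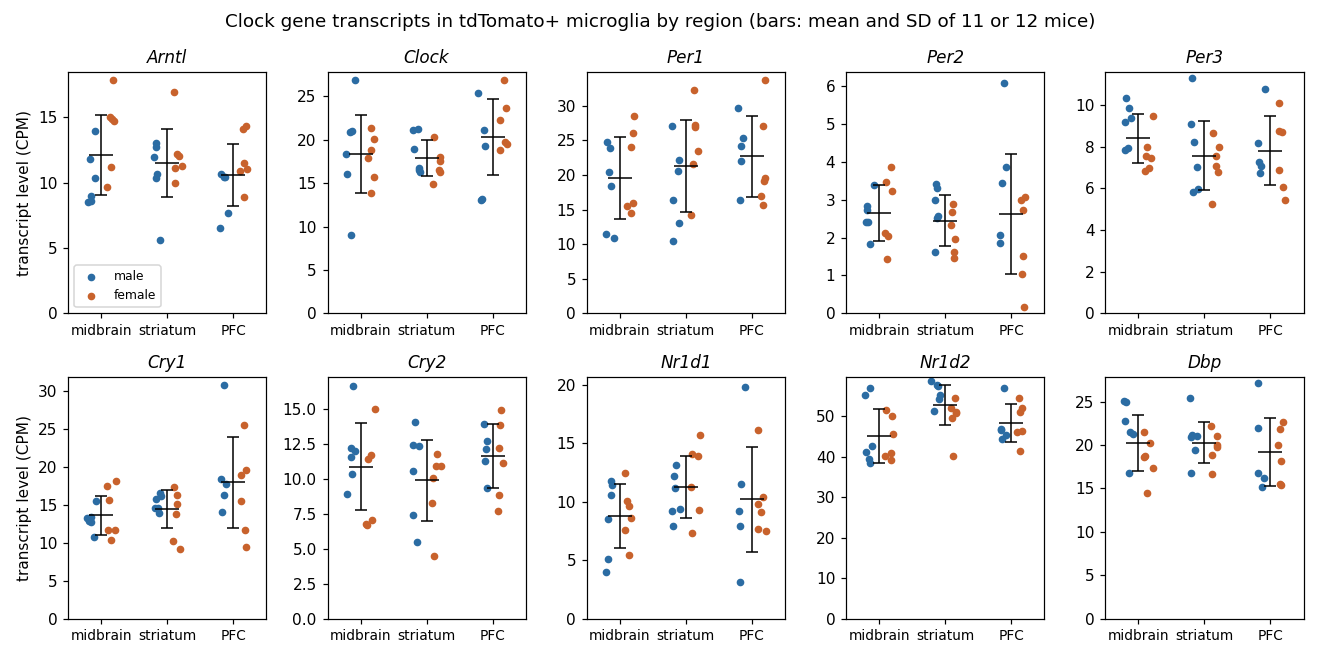
Transcript level in CPM of the 10 clock genes in each sample by region, with males in blue and females in orange and black bars at the mean and SD of 11 or 12 mice. The groups overlap in every panel. The 3 regions of Dbp had means between 19.2 and 20.3, and the PFC values of Cry1 reach 30.7 while its midbrain values end at 18.1.

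The comparison of regions asked whether clock transcripts differ between microglia of the midbrain, striatum and PFC. With edgeR's quasi-likelihood test over all genes, 0 of the 10 had an effect of region at an adjusted p under 0.05, beside 8.89% of all genes tested. Only Cry1 and Nr1d2 had an unadjusted p under 0.05, with adjusted p of 0.112 and 0.0806. The same test with the mouse as a replicate block called 0 of the 10, beside 14% of all genes, with adjusted p of 0.0503 for Cry1 and 0.0513 for Nr1d2.

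No pair of regions had a called clock gene, a call being a region effect with a pairwise p under 0.05 and a fold change over 1.2. The background was 5.99% of genes for PFC against midbrain, 6.47% for striatum against midbrain and 3.14% for striatum against PFC. The median log2 fold change of the 10 was 0.11 for PFC over midbrain, -0.02 for striatum over midbrain and -0.07 for striatum over PFC, beside 0.01, 0.01 and 0.01 for all genes.

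The activators were not called between regions. Midbrain samples had 12.1 ± 3.08 CPM of Arntl (SD, n = 12), striatal samples 11.5 ± 2.59 (n = 12) and PFC samples 10.6 ± 2.36 (n = 11). Its adjusted p for region was 0.577, and the 95% interval of the PFC over midbrain fold ran from 0.724 to 1.04. Clock measured 18.3 ± 4.47, 17.9 ± 2.09 and 20.3 ± 4.38 CPM, with an adjusted p of 0.632.

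Among the repressors Cry1 had the largest fold between regions. Its lowest, median and highest values were 10.4, 13.1 and 18.1 CPM among midbrain samples, 9.12, 14.9 and 17.3 among striatal ones, and 9.41, 17.7 and 30.7 among those of the PFC. PFC samples reached higher, but the 3 groups overlapped, and the PFC sample was above the midbrain sample in 8 of 11 mice. Striatum was above PFC in 1 of 11 mice. The fitted fold of PFC over midbrain was 1.32 (95% interval 1.08 to 1.61; log2 0.40, SE 0.14, adjusted p = 0.0833). With the mouse as a replicate block the log2 fold was 0.36 and its adjusted p 0.0412, but the region effect missed the threshold there as well. Mouse 11 weighed on it, since the log2 fold without that mouse was 0.27 (adjusted p = 0.325).

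The other repressors were not called between regions either. Per1, which also responds acutely to stimuli and to glucocorticoids, measured 19.6 ± 5.94, 21.3 ± 6.66 and 22.7 ± 5.87 CPM in midbrain, striatum and PFC (adjusted p = 0.733). Per2 measured 2.65 ± 0.738, 2.45 ± 0.669 and 2.62 ± 1.59 CPM (adjusted p = 0.951), and its intervals were the widest of the 10, from 0.655 to 1.42 for the fold of PFC over midbrain. Per3 (adjusted p = 0.693) and Cry2 (0.634) had region means of 7.56 to 8.40 and 9.89 to 11.6 CPM. A p that misses the threshold does not show equal levels.

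The REV-ERB genes had their lowest means in the midbrain and were not called. Nr1d2 had lowest, median and highest values of 38.4, 41.9 and 56.9 CPM among midbrain samples, 40.1, 53.1 and 58.6 among striatal ones, and 41.5, 46.6 and 56.9 among those of the PFC. Striatum was above midbrain in 8 of 12 mice, with overlapping groups. The fold was 1.17 (95% interval 1.06 to 1.29; log2 0.22, SE 0.07), under the minimum of 1.2, with a pairwise adjusted p of 0.0379. The call for region hung on the tool, as the adjusted p was 0.0806 with edgeR, 0.0399 with DESeq2 and 0.0343 with limma-voom. Nr1d1 measured 8.77 ± 2.77, 11.2 ± 2.65 and 10.2 ± 4.49 CPM in midbrain, striatum and PFC, with striatum above midbrain in 9 of 12 mice (log2 0.35, SE 0.20, adjusted p = 0.331). The microglial marker sum had means of 37350, 40840 and 38950 CPM in the same order of regions. Astrocyte markers summed to 240.5 ± 19.8, 355.3 ± 58.4 and 347.2 ± 74.9 CPM and neuronal ones to 3.48 ± 1.23, 7.55 ± 2.34 and 12.8 ± 4.28, both lowest in the midbrain. The part of these sums in the differences was not tested.

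Dbp, an output of the activators that encodes a D-box binding factor, had the smallest fold of the 10 between striatum and midbrain. It measured 20.3 ± 3.22, 20.3 ± 2.37 and 19.2 ± 3.90 CPM, with an adjusted p of 0.868 and an interval of 0.88 to 1.14 for striatum over midbrain. Its exons share 539 bases, 18% of their length, with Sphk2 on the other strand, and the library kits do not mark strand, so reads there cannot be assigned. Nr1d1 likewise shares 263 bases (8.55%) with Thra, and Cry2 shares 295 bases (4.67%) with D930015M05Rik.

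**Figure D2:**
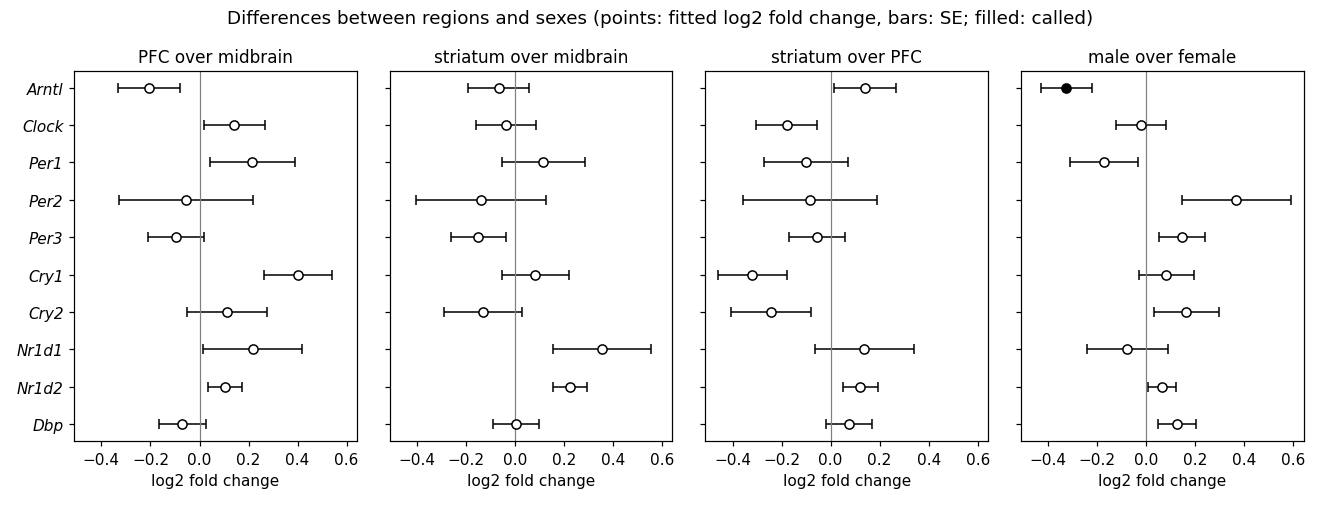
Fitted log2 fold changes of the 10 clock genes (points) with their SE (bars) for the 3 pairs of regions and for male over female, where a filled point was called. The only filled point is Arntl for sex, at -0.33, and the highest point of the region panels is Cry1 at 0.40 for PFC over midbrain.

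Sex was compared in the same fit. 1 of the 10 was called at an unadjusted p under 0.05 with a fold over 1.2, beside 4.13% of all genes. It was Arntl, lower in males, with a log2 fold change of -0.33 (SE 0.10), which did not pass adjustment over all genes (adjusted p = 0.228). In the midbrain Arntl ran from 8.52 through a median of 9.69 to 14.0 CPM in the 6 males and from 9.67 through 14.8 to 17.9 in the 6 females. In the striatum the males had a lowest value of 5.60 and a median of 11.3, and the females a median of 11.7 and a highest value of 16.9. In the PFC the 5 males measured 6.51 to 10.7 CPM and the 6 females 8.90 to 14.3. The means of females were higher in all 3 regions, and the sexes overlapped in each. Mouse means ran from 7.99 to 11.7 CPM in males and 10.5 to 14.8 in females. With counts summed per mouse 1 of the 10 was called, Arntl again (log2 -0.33, adjusted p = 1), beside 3.1% of all genes. In mice 7 to 12 alone the log2 fold was -0.18 (adjusted p = 0.841) and Arntl was not called, and in mice 1 to 6 alone it was -0.47 (adjusted p = 0.5).

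The other 9 had log2 fold changes for sex between -0.17 (Per1) and 0.37 (Per2). Per2 in the PFC ran from 1.85 through a median of 3.43 to 6.08 CPM in the 5 males and from 0.155 through 2.12 to 3.08 in the 6 females, and its log2 difference within that region was 0.85 (SE 0.39, adjusted p = 0.778). For the interaction of sex and region, 0 of the 10 and 0% of all genes were called by edgeR, with an unadjusted p under 0.05 for 632 genes, none of them among the 10. DESeq2 called 1 gene, which was not of the 10.

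The samples of a mouse came from 1 animal, so variation shared by the regions of a mouse is where a difference between animals would show. Mouse means of Per2 spanned a 3.13-fold range from lowest to highest, Nr1d1 a 2.51-fold range and Cry1 a 1.98-fold range. Such ranges also hold scatter between the samples of a mouse. Mouse 2, lowest for Per2, had 0.155 CPM in the PFC beside 2.11 in the midbrain and 1.61 in the striatum. Mouse 11, highest for Cry1, had 30.7 CPM in the PFC beside 10.7 in the midbrain and 15.7 in the striatum. Dbp (1.33-fold) and Nr1d2 (1.23-fold) varied least. The median range of the 10 was 1.81-fold, beside 1.54-fold for the 12297 genes with a mean of at least 1 CPM.

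A test of mouse within sex called 1 of the 10, Nr1d1 (adjusted p = 0.0107), beside 15.3% of all genes. Cry1 (adjusted p = 0.0574) and Per3 (0.0713) had an unadjusted p under 0.05 only. Per2, with the widest range of mouse means, had an adjusted p of 0.443. The count moved with single mice. It was 2 without mouse 3 or without mouse 11, where Cry1 was added, beside 3229 and 2452 of the 21236 genes. It was 4 without mouse 6, where Per3, Cry1 and Cry2 were added, beside 3043 genes. DESeq2 called 3, Nr1d1, Per3 and Cry1, beside 5729 of the 21236 genes.

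Nr1d1 was high in the mice with high numbers. Its mouse means, from mouse 1 to mouse 12, were 5.81, 9.32, 8.24, 7.48, 8.12, 7.82, 12.0, 11.5, 9.30, 11.7, 14.6 and 14.2 CPM. A comparison of mice 1 to 6 with mice 7 to 12 was added after the data were seen, with the counts summed per mouse and sex as a covariate. Since the means of Nr1d1 prompted the split, its p describes that observation and is no independent test of it. The comparison called 2 of the 10, both higher in mice 7 to 12, which is a share near the 14.8% of all genes. Each set holds 3 males and 3 females, and the labels name no batch for them.

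Nr1d1 rose in mice 7 to 12 by 0.64 on the log2 scale (SE 0.12, adjusted p = 0.00317). In the midbrain the 6 low-numbered mice ran from 3.98 through a median of 6.51 to 8.65 CPM. The 6 high-numbered mice ran from 9.62 through 11 to 12.5, without overlap, in a split drawn from this gene's own means. How many of all genes separated in this way was not counted. In the striatum the ranges were 7.30 to 11.3 and 9.38 to 15.7 CPM. In the PFC they were 3.12 to 9.18 in 5 mice and 7.94 to 19.9 in 6, so that in those regions the sets overlapped. Thra, which shares exon sequence with Nr1d1, had a log2 difference of 0.10 between the sets (adjusted p = 0.706).

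Per2 rose by 0.66 on the log2 scale (SE 0.15, adjusted p = 0.00712). Its mouse means were 1.95, 1.29, 2.17, 2.04, 2.49 and 1.91 CPM in mice 1 to 6 and 3.41, 3.09, 3.09, 2.55, 4.04 and 2.65 in mice 7 to 12. The sets did not overlap, and how many of all genes separated in this way was not counted. Within each region the sets did overlap, from 1.44 to 3.24 against 2.04 to 3.87 CPM in the midbrain. Both transcripts were called under each alternative run for this comparison, including each mouse left out in turn. All of these were edgeR fits, and DESeq2 and limma-voom were not run for it. For Nr1d1 that outcome says little, because the split was drawn from its means.

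The remaining 8 did not pass. Cry2 (log2 0.32, adjusted p = 0.0974), Cry1 (0.27, 0.198) and Per3 (0.23, 0.162) had the next largest differences, and Per1 had the only negative one (-0.14, adjusted p = 0.511). Arntl (0.00), Dbp (0.04) and Nr1d2 (0.07) had the smallest. With all 35 samples as units 4 of the 10 were called, Per3 and Cry2 added, beside 5083 of the 21236 genes. That setting counts samples of 1 animal as replicates. Astrocyte markers summed to 283.1 ± 49.5 CPM in the 17 samples of mice 1 to 6 and 342 ± 86.1 in the 18 of mice 7 to 12, oligodendrocyte markers to 302.7 ± 71.5 and 392.9 ± 127, and microglial markers to 39290 ± 2133 and 38820 ± 2441. Their part in the difference was not tested.

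**Figure D3:**
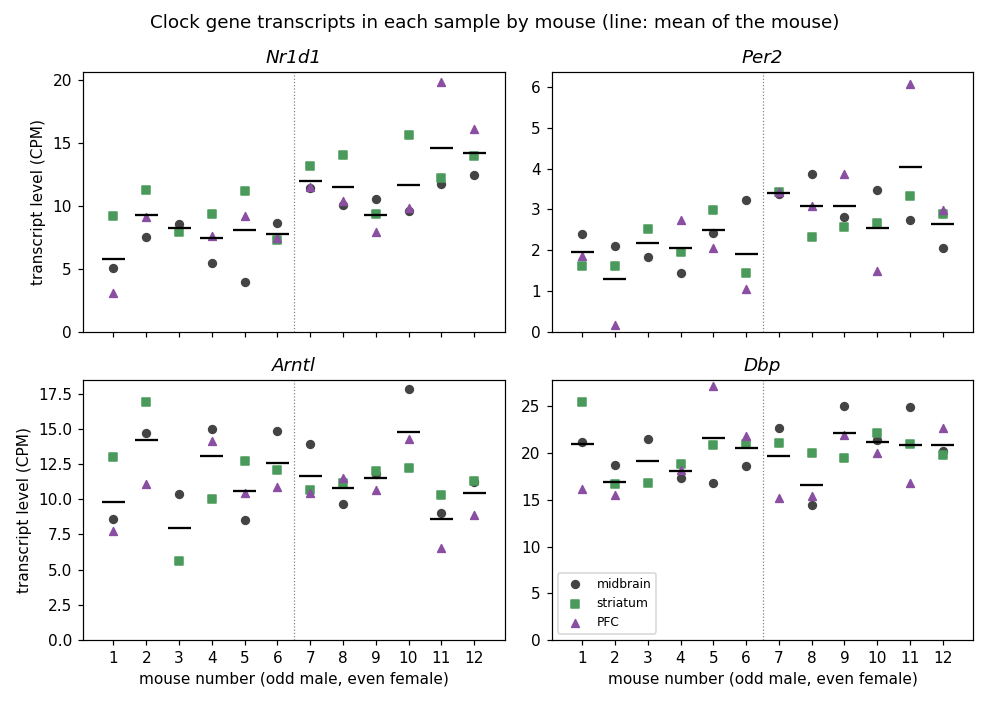
Transcript level in CPM of Nr1d1, Per2, Arntl and Dbp in each sample against the mouse number, with a line at the mean of the mouse and a dotted line between mice 6 and 7. Nr1d1 and Per2 step up after mouse 6, with mouse means of 5.81 to 9.32 and then 9.30 to 14.6 CPM for Nr1d1, while Arntl and Dbp show no such step.

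**Figure D4:**
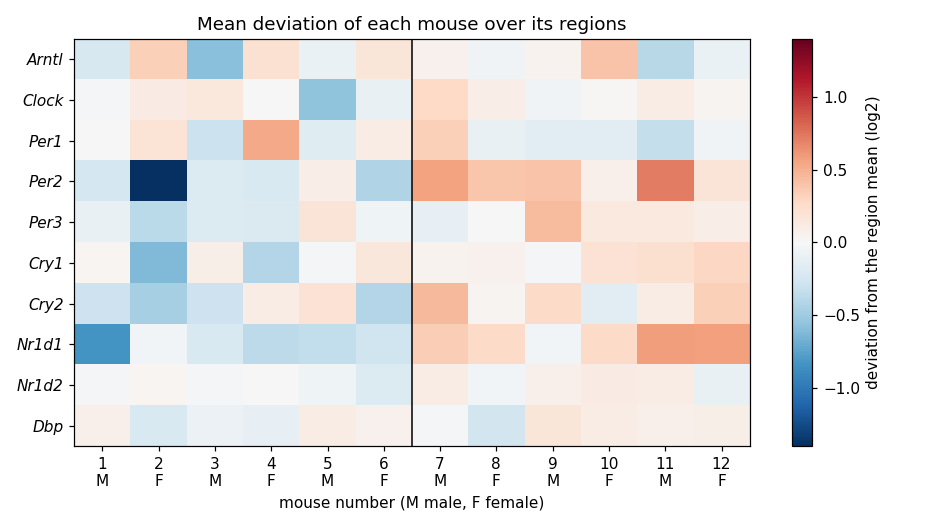
Mean deviation of each mouse from the region means (log2) for the 10 clock genes, red above and blue below, with a line between mice 6 and 7. The row of Nr1d1 is blue in mice 1 to 6 (nearly white in mouse 2) and red in mice 7 to 12 except mouse 9 at -0.03, and the row of Per2 is darkest in mouse 2 at -1.40.

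Once the 2 sets were set apart, less was left between mice. The test of mouse within sex and within mice 1 to 6 or 7 to 12 called 0 of the 10 and 213 genes in all, against 3248 without that term. Nr1d1 then had an adjusted p of 0.558. Its own means had prompted the split, so this loss was built in and is no finding about Nr1d1. Cry1 had an unadjusted p of 0.0484 and Per3 of 0.05, with adjusted p of 0.348 and 0.351.

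The variance of log2 CPM, after region means were removed, was split into a part between mice and a part within them. The share between mice was 49.4% for Nr1d1, 46% for Per3, 38% for Arntl, 37.4% for Cry1, 27.8% for Cry2, 22.6% for Per2 and 14.9% for Clock. It was 1.89% for Dbp and 0% for Per1 and Nr1d2, whose samples of 1 mouse were no more alike than samples of different mice. The median of the 10 was 25.2% (jackknife SE over mice 13.3), beside 27.8% for the 12297 genes of at least 1 CPM. With the means of the 2 sets of mice removed the medians were 7.95% and 15.3%, and Nr1d1 fell to 7.71% while Per3 stood at 43.2% and Arntl at 37.7%. The fall of Nr1d1 was built in, because the sets were drawn from its mouse means. When sex means were removed in place of the sets' means, the share of Arntl fell to 21.9%. Per3 then had 45.1% and Nr1d1 51.5%.

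**Figure D5:**
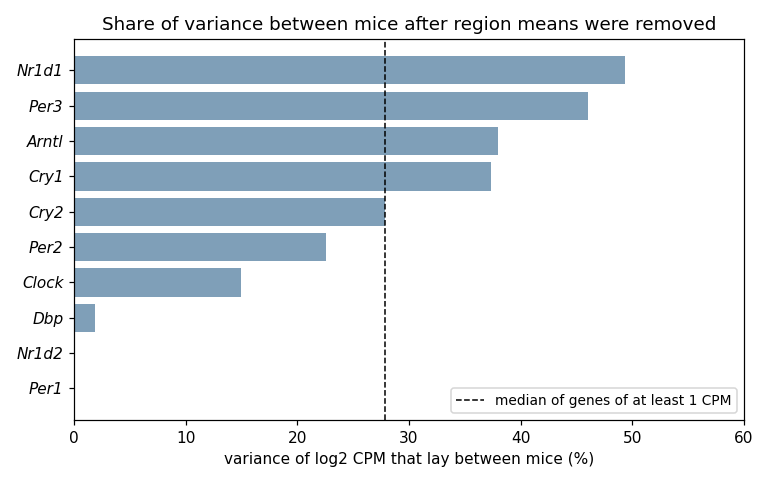
Share of the variance of log2 CPM that lay between mice (%) for each clock gene after region means were removed, with a dashed line at the median of genes of at least 1 CPM. The bar of Cry2 ends at the line, at 27.8%, and Per1 and Nr1d2 have no bar.

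If regions of a mouse moved together, a gene's level in one region would follow its level in another over mice. Over 30 such relations, 0 had an adjusted p under 0.05 in the permutation test, and the lowest was 0.127. Arntl in PFC and midbrain had r = 0.72 and rho = 0.72 over 11 mice (permutation p = 0.0107 and 0.0171), and r was 0.56 without the 2 most extreme mice. With sex means removed its r was 0.58 (permutation p = 0.088). Cry1 in striatum and PFC had r = 0.74 (permutation p = 0.0106) and rho = 0.63 (0.0434), but r was 0.17 without 2 mice, so that it rested on those. Dbp had r of -0.04, 0.14 and 0.03 for the 3 pairs. Between PFC and midbrain the median r of the 10 was 0.15, beside 0.43 over all genes of at least 1 CPM. For striatum with midbrain it was 0.19 beside 0.25, and for striatum with PFC 0.26 beside 0.26.

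Pairs of clock genes were compared over the 12 mouse means, with 45 relations in all. 0 passed at an adjusted p under 0.05, and 7 had an unadjusted permutation p under 0.05. By Pearson's r the closest were Per2 and Cry2, whose proteins belong to the repressor complex, with r = 0.76 and rho = 0.76 (permutation p = 0.00176 and 0.00666, adjusted 0.0792 and 0.135) and r of 0.81 without the 2 most extreme mice. Within mice 1 to 6 r was 0.68, and within mice 7 to 12 it was 0.36. By Spearman's rho the closest were Per3 and Dbp, with r = 0.72 and rho = 0.83 (permutation p = 0.00683 and 0.00143, adjusted 0.154 and 0.0644), with 0.90 within mice 1 to 6 and 0.63 within mice 7 to 12. Arntl, whose phase opposes that of Nr1d1 and Dbp in a running clock, gave r = 0.02 with Nr1d1 (permutation p = 0.942) and -0.09 with Dbp (0.779). The sign was not stable: with Nr1d1 the low-numbered mice gave 0.30 and the high-numbered mice -0.54, and with Dbp it was -0.32 and 0.14. The lowest r was -0.61, between Per1 and Cry1 (permutation p = 0.0352, adjusted 0.283). Once the means of mice 1 to 6 and of mice 7 to 12 were removed, 1 pair passed, Clock and Per3 (r = -0.83, adjusted permutation p = 0.0167). Without that step the pair had r = -0.40 (permutation p = 0.199, adjusted 0.496), and the split was drawn after the data were seen.

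Further genes of the clock pathway were taken as lists. Of 12 genes of the auxiliary loops 11 were measured, and 2 had a region effect, Hlf and Bhlhe40, beside 8.89% of all genes. Hlf, a relative of Dbp that binds the D-box, was higher in the PFC at 8.67 ± 1.83 CPM (SD, n = 11) than in the midbrain at 5.85 ± 1.38 (n = 12; log2 0.57, SE 0.14, adjusted p = 0.01). Bhlhe40 (DEC1), a repressor at E-boxes, was lower in the PFC at 1.26 CPM on average than in the midbrain at 3.50 (log2 -1.47, SE 0.39, adjusted p = 0.0145). The neuronal marker sum was 12.8 CPM in the PFC and 3.48 in the midbrain and the astrocyte sum 347.2 and 240.5, and their part in both differences was not tested. For male over female Hlf had a log2 difference of -0.35 (adjusted p = 0.264) and Ciart, a clock repressor also known as Chrono, 0.50 (adjusted p = 0.576). Both met the unadjusted rule over the 35 samples, beside 4.13% of all genes. With counts summed per mouse Hlf met it and Ciart did not (adjusted p = 1 for each), beside 3.1% of all genes. Between mice within sex Tef, the third D-box binding relative (adjusted p = 0.00478), and Bhlhe41 (0.0442) passed, 2 of the 11 beside 15.3% of all genes. Between the sets of mice 1 of the 11 was called, beside 14.8% of all genes. It was Ciart, higher in mice 7 to 12 (2.52 ± 0.706 against 4.06 ± 1.32 CPM over mouse means, log2 0.69, adjusted p = 0.0224).

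Of 10 genes for clock kinases and protein turnover 0 had a region effect, beside 8.89% of all genes (1, Csnk1e, with the mouse as a replicate block, beside 14%). Between mice within sex 4 of the 10 were called, beside 15.3% of all genes. They included Csnk1d (adjusted p = 0.0386) and Csnk1e (0.00103), which phosphorylate PER proteins, and the kinase gene Gsk3b (0.0191). Csnk1e rose in mice 7 to 12 from 171.2 ± 14.5 to 212.4 ± 11.1 CPM (log2 0.29, SE 0.06, adjusted p = 0.00436). Csnk1d (0.19) and Gsk3b (0.29) also rose there, with adjusted p of 0.022 and 0.0153. In all 3 of the 10 were called between the sets, beside 14.8% of all genes.

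Of 4 output genes 1 had a region effect, beside 8.89% of all genes. Usp2, a deubiquitinase under clock control, was higher in the striatum at 242.9 ± 28.1 CPM than in the midbrain at 182.2 ± 24.5 (log2 0.42, SE 0.08, adjusted p = 0.000494). It also differed between mice within sex (adjusted p = 0.00904) and rose in mice 7 to 12 (log2 0.24, adjusted p = 0.00812), beside 15.3% and 14.8% of all genes. Wee1, Nampt and Noct were not called in any of these comparisons, Wee1 having the largest difference between the sets (log2 1.03, adjusted p = 0.0543).

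Glucocorticoid targets and immediate early genes were counted because Per1 responds to both kinds of stimulus. Of 8 glucocorticoid targets 1, Sgk1, had a region effect, beside 8.89% of all genes (log2 0.44 for striatum over PFC, adjusted p = 0.0223). With the mouse as a replicate block Tsc22d3 was added, beside 14% of all genes. Between mice 1 was called, Sgk1 again, beside 15.3% of all genes, and between the sets of mice 0, beside 14.8%. For sex, Fkbp5 was lower in males with an adjusted p of 0.0339 (log2 -0.24, SE 0.055), under the minimum fold, and had an adjusted p of 0.973 with counts summed per mouse. Ddit4 met the unadjusted rule (log2 -0.58, adjusted p = 0.436), 1 of the 8 beside 4.13% of all genes. Of 8 immediate early genes 0 had a region effect, beside 8.89% of all genes (2, Junb and Ier2, with the mouse as a replicate block, beside 14%). Between mice 4 of the 8 were called, Fos, Jun, Junb and Ier2 (adjusted p of 0.0114 to 0.0223), beside 15.3% of all genes. Between the sets 0 were called, beside 14.8%. The immediate early transcripts summed to 14410 to 38280 CPM per sample. Per1, for its part, had an adjusted p of 0.701 between mice.

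The genes most like Arntl and Dbp were sought among 8615 genes with a mean of at least 8 CPM, by Pearson's r of region-centred log2 CPM over the 35 samples. Those most like Arntl were Nup88 (r = 0.75), Ccdc43 (0.74), Cog6 (0.74), Nae1 (0.70) and Rpl7l1 (0.68), and those most unlike it Rbms2 (-0.67), March8 (-0.59), Lmo2 (-0.59), Slc11a1 (-0.59) and Slc25a39 (-0.58). Those most like Dbp were Nabp2 (0.70), Sphk2 (0.64), Renbp (0.63), Ccl3 (0.59) and Chkb (0.58), and those most unlike it included Ust (-0.63), Tpgs2 (-0.63), Zmpste24 (-0.58) and Trove2 (-0.58). No clock gene of the lists stood among them. Samples of a mouse share the animal, Sphk2 shares exon sequence with Dbp, and these values are a description.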

How the data were processed

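RNA from tdTomato-positive cells was made into libraries with Smart-Seq HT and Nextera XT, which do not mark strand, and sequenced as paired reads. The authors trimmed the reads with Trimmomatic, aligned them to GRCm38 with HISAT2 after FastQC, and deposited raw counts per Ensembl gene, without normalization, after removing genes under 1 CPM across the groups of sex and region. The counting tool, annotation release and use of strand are not given in the sources used here. Symbols and exon lengths came from GENCODE M21, which named 21103 of the 21236 genes.

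The counts were tested over all genes with the robust quasi-likelihood F-test of edgeR 4.0.16 under R 4.3.3, after TMM scaling and with Benjamini-Hochberg adjustment. Region and sex entered as additive terms, and the interaction, mouse within sex and mouse as a block had fits of their own. Sex and the 2 sets of mice were also tested on counts summed per mouse. Log2 CPM used a prior count of 2, intervals of fold changes the t quantile at 31 residual degrees of freedom, and correlations 100000 permutations, two-sided. DESeq2 1.42.0, limma 3.58.1, other size factors, filterByExpr and each mouse left out were alternatives, and Python 3.11.15 with matplotlib 3.10.9 drew the plots.

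The 12 title numbers match the 12 mice, so samples of a number were taken to come from the same animal. Their log2 CPM deviations from the means of each region and sex had a mean r of 0.22 over 34 same-mouse pairs. It was -0.04 over 170 pairs of other mice of the same sex in different regions. With deviations taken from group means, the second value is largely fixed by the first and is no separate evidence. The lowest r of a same-mouse pair was -0.13, so the kinds of pair overlapped. No 2 samples were alike enough to be the same library (highest r of log2 CPM 0.984). The 10 genes and the lists were chosen with earlier results of these data known. The rule for genes named beyond the 10 took those of the clock lists with an adjusted p under 0.05 for mouse or region, and the 5 most and least like Arntl and Dbp. Not every gene that the rule took is reported here. Ciart, Wee1, Ddit4, Fkbp5, Tsc22d3 and the genes named for sex or for the sets of mice were chosen after their values were seen.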

Additional observations from a re-analysis of the deposited data

Results flagged for a closer look

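Each of the 10 genes was checked in the 6 groups of 1 region and sex for a highest or lowest sample far from the rest (Dixon's test). Of 60 groups 6 held such a sample, where chance gives about 1 in 20. Arntl was low in the striatum of male mouse 3 at 5.60 CPM, with the next sample at 10.3, and high in the striatum of female mouse 2 at 16.9 CPM, with the next at 12.2. The striatum of mouse 3 is the sample whose column name and label disagree on the region. Cry1 and Nr1d2 were high in the PFC of male mouse 11 at 30.7 and 56.9 CPM, where the next samples had 18.3 and 46.7. Nr1d1 was high in the PFC of female mouse 12 at 16.2 CPM, with the next at 10.4. Nr1d2 was low in the striatum of female mouse 6 at 40.1 CPM, with the next at 49.5. The causes were not tested.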

How the results depend on the processing

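For the 10 genes, region called 0 under all edgeR alternatives, including the mouse as a replicate block (0), and 1, Nr1d2, with DESeq2 and with limma-voom. For the pairs of regions the count was 0 under all alternatives but striatum against midbrain at an adjusted p with no minimum fold, where it was 1 (Nr1d2). For sex the count of 1 became 0 with an adjusted p and in mice 7 to 12 alone, 2 in mice 1 to 6 alone (beside 1114 of all genes), and 1 to 2 as each mouse was left out (2 without mouse 8, Per2 added, beside 1009 of all genes). The interaction stayed at 0, also with the replicate block. Between mice within sex the count of 1 became 0 when either set of 6 mice was fitted by itself and when mice were tested within the sets, 3 with DESeq2, and 1 to 4 as each mouse was left out. The sets had been drawn from the means of Nr1d1, the 1 gene called. Between the sets of mice, compared by edgeR only, the count of 2 became 4 with 35 samples as units and 2 to 3 as each mouse was left out. The median share of variance between mice moved from 25.2% to 7.95% with the sets' means removed, and ran from 17.2% to 30.9% as each mouse was left out. Correlations that passed numbered 0 to 1 between regions (1 without mouse 5) and 0 to 2 between genes (2 without mouse 8, 1 without mouse 11) as each mouse was left out, and 1 between genes with the sets' means removed. No called fold change of the 10 genes changed sign under any alternative run. Correlations that did not pass changed sign: Arntl with Nr1d1 went from 0.02 to -0.13 and Arntl with Dbp from -0.09 to 0.26 with sex means removed, Dbp between PFC and midbrain from -0.04 to 0.27 without the 2 most extreme mice, and Per2 with Nr1d1 from 0.49 to -0.30 with the sets' means removed.

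Over all genes, region called 1888 by edgeR, 2372 by DESeq2, 2964 by limma-voom, 2977 with the mouse as a replicate block, 512 from mice 1 to 6 and 1183 from mice 7 to 12. For PFC against midbrain and striatum against midbrain, mice 1 to 6 gave 397 and 411 calls in place of 1271 and 1375. Mouse within sex called 3248 by edgeR and 5729 by DESeq2, and the sets of mice 3152, or 5083 with 35 samples as units. For striatum against PFC the 667 calls became 1032 with the replicate block, 1200 by limma-voom, 121 by adjusted p, 279 from mice 1 to 6 and 394 from mice 7 to 12, and for sex the 878 calls became 565 by limma-voom and 72 by adjusted p. Fits of 6 mice have fewer samples; for the other changes the cause was not tested. Per2, the lowest of the 10, had 8 to 312 counts per sample. Sacrifice time, mouse and handling order cannot be told apart, and the 3 regions of a mouse are 1 animal.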
